A study of Canis lupus familiaris with 186 samples.

Results

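The semaphorin, plexin, neuropilin, ephrin and Eph receptor genes of the dog were examined in 186 primary osteosarcomas, a malignant tumor of bone-forming cells. The genes were chosen by symbol alone (SEMA3 to SEMA7, PLXNA to PLXND, NRP1 and NRP2, EPHA, EPHB, EFNA and EFNB), and 53 of the 37952 genes in the deposited table matched. Of these, 47 were among the 13422 genes that passed a filter on low counts, and they comprise 19 semaphorins, 9 plexins, 2 neuropilins, 5 ephrin-A genes, 3 ephrin-B genes, 4 EphA receptors and 5 EphB receptors. The tumors came from privately owned pet dogs of varied age, breed and sex that were enrolled in the clinical trials COTC021 (93 dogs) and COTC022 (93 dogs). Each biopsy was taken before treatment, which was standard of care with or without rapamycin. Each library is 1 tumor of 1 dog, made from polyadenylated RNA, and normal bone was not analysed here. The labels give no genotype, age or treatment, and the trial is the only group in them.

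Semaphorins are secreted or membrane-bound ligands that bind plexins, in class 3 mostly through a neuropilin co-receptor, and collapse or redirect the cytoskeleton of the receiving cell. Ephrins are anchored to the membrane and signal to Eph receptor tyrosine kinases on a neighboring cell, with signaling in both directions. In bone, SEMA4D made by osteoclasts restrains osteoblasts through PLXNB1, SEMA3A protects bone through NRP1, and EFNB2 on osteoclasts meets EPHB4 on osteoblasts. Elsewhere the same families direct vessel growth (SEMA3 ligands, NRP1, PLXND1, EFNB2 and EPHB4) and immune cells (SEMA4A, SEMA4D, SEMA7A and PLXNC1).

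Total counts ranged from 6587631 to 27420857 per library, with a median of 10797162. The deposited columns are named in 2 ways. In 50 libraries, of 18 COTC021 and 32 COTC022 dogs, the parts of the name are separated by a doubled mark, and their median depth was 19440450 counts, while that of the remaining 136 libraries was 9851681. What the naming stands for is not given, so slopes were also computed within each group of libraries. The library of COTC022 replicate 64 stood apart from the rest, with a median Spearman correlation of 0.714 to the other libraries, where the median library had 0.869. Markers of osteoblasts were present, since 9 of 10 listed osteoblast genes had 10 or more counts in most dogs, with median levels up to 722 CPM (counts scaled to the library total). All 10 leukocyte, 12 endothelial, 8 cartilage and 9 skeletal muscle markers and 7 of 8 osteoclast markers passed the same limit, whereas 2 of 6 adipocyte and 0 of 6 Schwann cell markers did.

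Levels differed more between dogs than between trials. NRP2, the neuropilin that binds SEMA3F and lymphatic growth factors, ranged from 177 over a median of 495 to 1949 CPM in COTC021 and from 139 over 462 to 1863 CPM in COTC022. The other 4 members with the highest median CPM were PLXND1 (253 CPM), the endothelial plexin that binds SEMA3E, PLXNA2 (197 CPM), NRP1 (190 CPM) and PLXNB2 (185 CPM). Counts grow with transcript length and exon lengths were not used here, so these levels do not order the genes by number of transcripts. At least 10 counts were found in all 186 dogs for 26 of the 53 genes.

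**Figure D1:**
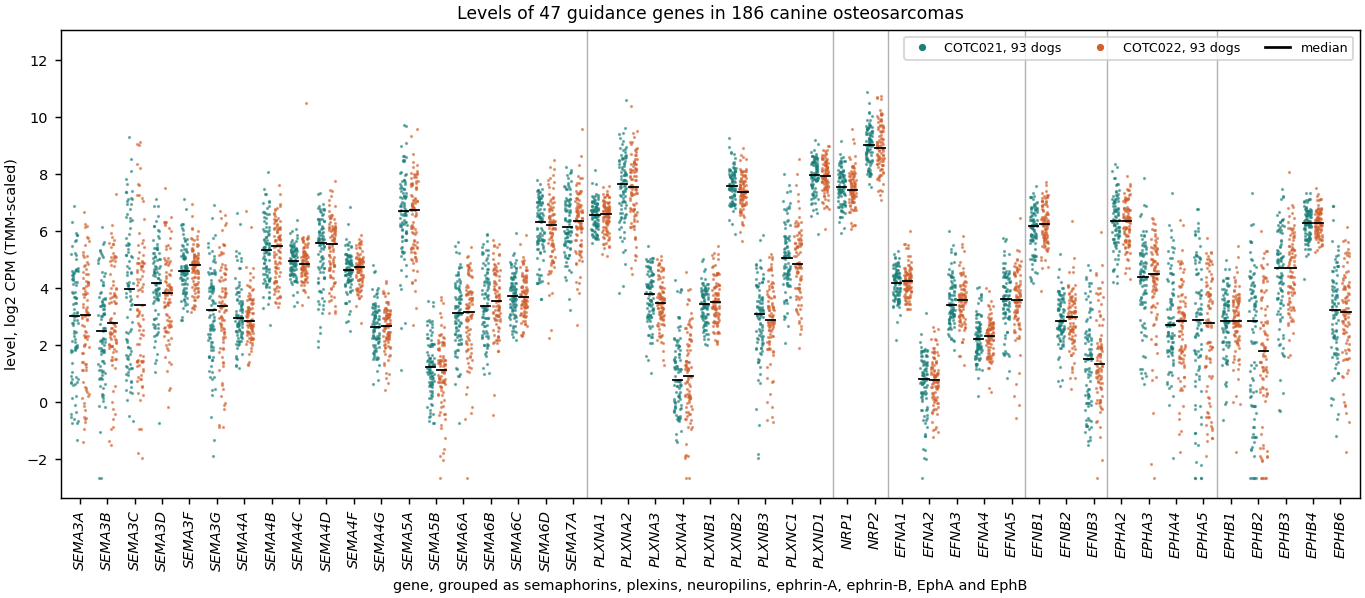
Level of each of the 47 genes above the filter on low counts (log2 CPM, scaled with TMM), with 1 point per dog colored by trial and a black line at the median of each trial. The points of both trials overlap for each gene, SEMA3C, EPHA5 and EPHB2 spread the widest, and 1 COTC022 dog lies far above the others for SEMA4C.

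Among the 47 genes above the filter, the widest spread over dogs was that of SEMA3C, a secreted semaphorin, with an SD of 2.16 on the log2(CPM + 1) scale. It ranged from 0.486 over a median of 16.3 to 642 CPM in COTC021 and from 0.109 over 10.0 to 578 CPM in COTC022. EPHA5 (SD 1.74), EPHB2 (1.72), SEMA3A (1.58) and SEMA3B (1.44) followed, and EPHB4, the receptor of EFNB2, was the most even of the 47, with an SD of 0.527 and levels between 18.2 and 192 CPM. The 6 genes that failed the filter were EPHA1, EPHA6, EPHA7, EPHA8, EPHA10 and SEMA3E. EPHA6 had 10 or more counts in 77 dogs and reached 34.9 CPM, and SEMA3E, the ligand of PLXND1, had them in 32 dogs and reached 38.9 CPM. EPHA7 had them in 45 dogs, EPHA10 in 20, EPHA1 in 9 and EPHA8 in 2.

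Because the labels hold no groups by cell content, each gene was fitted against continuous scores over all dogs, using limma-voom and a term for the trial. A score is the mean z-score of a list of marker genes, scaled to an SD of 1, so that a slope is a log2 change per SD of the score, and calls use Benjamini-Hochberg adjusted p-values under 0.05 over all 13422 genes. The scores come from the same libraries as the genes, and in bulk RNA fewer cells of a type and less RNA per cell cannot be told apart. For fits on part of the dogs, the score was rebuilt and scaled to an SD of 1 over those dogs. Slopes within a trial or library group are therefore per SD of that group and differ in unit from those over all dogs. The leukocyte and endothelial scores correlated with Pearson's r = 0.258 (Spearman's rho = 0.254, n = 186, permutation test, adjusted p = 0.0006 for r and 0.00153 for rho over 3 relations, r = 0.247 without the 2 farthest dogs). The leukocyte and osteoblast scores correlated with r = -0.334 (rho = -0.224, adjusted p = 3e-05 and 0.0031, r = -0.241 without the 2 farthest dogs), where 1e-05 before adjustment is the smallest p that 100000 permutations can give. Endothelial and osteoblast scores did not pass the test, with r = -0.134 (rho = -0.102, adjusted p = 0.069 and 0.165 by the same permutation test, r = -0.132 without 2 dogs). Within COTC021 and COTC022 these r were 0.225 and 0.298, then -0.323 and -0.341, then -0.0626 and -0.226. Within the 50 and the other 136 libraries they were 0.321 and 0.233, then -0.427 and -0.295, then -0.403 and -0.031.

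With the leukocyte score, SEMA4A, SEMA4D, SEMA7A and PLXNC1, which are known from immune cells, were higher, while most Eph receptors and ephrins that were called were lower. Of the 47 genes, 9 were higher (background 23.3% of all genes tested) and 21 lower (background 28.8%), which is 19.1% and 44.7% of the members. Their median slope was -0.11, against -0.02 over all genes tested. Among semaphorins 5 were higher and 5 lower, among plexins 3 and 4, among EphA receptors 0 and 3, among EphB receptors 0 and 3, among ephrin-A genes 1 and 4, among ephrin-B genes 0 and 2, and neither neuropilin was called.

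PLXNC1, the plexin that binds SEMA7A, lies at chr15:34575260-34712431 (build UU_Cfam_GSD_1.0). It ranged from 3.97 over a median of 30.5 to 269 CPM in COTC021 and from 3.56 over 29.4 to 385 CPM in COTC022, which overlap. Its level was 1.86-fold higher per SD of the leukocyte score, a slope of 0.90 ± 0.066 (SE, adjusted p = 2.16e-28, limma-voom), with 0.81 and 0.98 within COTC021 and COTC022 and 1.02 and 0.87 within the 50 and the other 136 libraries. SEMA4A, a membrane semaphorin that costimulates T cells, ranged from 1.42 over 7.79 to 90.5 CPM in COTC021 and from 1.88 over 7.12 to 101 CPM in COTC022. Dogs with a high leukocyte score held its highest levels, and the highest of all was the library that stood apart. The slope of SEMA4A was 0.80 ± 0.050 (SE, adjusted p = 1.88e-35, limma-voom), with 0.89 and 0.74 within the trials and 0.93 and 0.73 within the library groups.

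SEMA4D, which is found on T cells as well as osteoclasts, ranged from 3.13 over 48.9 to 169 CPM in COTC021 and from 6.72 over 46.2 to 208 CPM in COTC022. Its slope on the leukocyte score was 0.60 ± 0.071 (SE, adjusted p = 1.45e-13), with 0.65 and 0.56 within the trials and 0.62 and 0.58 within the library groups. SEMA7A, a lipid-anchored semaphorin of lymphocytes and monocytes, ranged from 6.76 to 794 CPM over all dogs with a median of 81.5 and had a slope of 0.45 ± 0.071 (adjusted p = 1.6e-08). SEMA3G had a slope of 0.42 ± 0.12 (adjusted p = 0.00199 by limma-voom), which was not called by edgeR (0.14, adjusted p = 0.338) or DESeq2 (0.13, adjusted p = 0.291). The other called genes that were higher are PLXNA4, EFNA2, SEMA3F and PLXND1, with slopes between 0.15 and 0.33. With the endothelial and osteoblast scores in the fit, PLXNA4 (0.06, adjusted p = 0.699) and SEMA3F (-0.07, adjusted p = 0.101) were not called, and SEMA3F turned in sign.

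EPHB2, a receptor of B-type ephrins, had the steepest fall. It ranged from 0 over a median of 6.46 to 177 CPM in COTC021 and from 0 over 3.54 to 67.6 CPM in COTC022, and had 0 counts in 10 dogs. Its slope on the leukocyte score was -1.17 ± 0.18 (SE, adjusted p = 1.03e-08, limma-voom), with -1.43 and -0.92 within the trials and -1.27 and -1.07 within the library groups. The related EPHB3 had a slope of -0.57 ± 0.11 (adjusted p = 1.38e-06), the ephrin EFNB3 one of -0.53 ± 0.12 (adjusted p = 6.17e-05, and -0.43 with adjusted p = 0.0595 within COTC021) and the A-type receptor EPHA3 one of -0.50 ± 0.11 (adjusted p = 5.7e-05). SEMA3B, a secreted semaphorin, had -0.47 ± 0.14 (adjusted p = 0.00291), with -0.15 (adjusted p = 0.582) within COTC021 and -0.20 (adjusted p = 0.34) within the 136 libraries, where it was not called. PLXNC1, SEMA3B and SEMA3C each overlap another protein-coding gene in the annotation, and whether the counting used strand is not given in the sources used here.

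**Figure D2:**
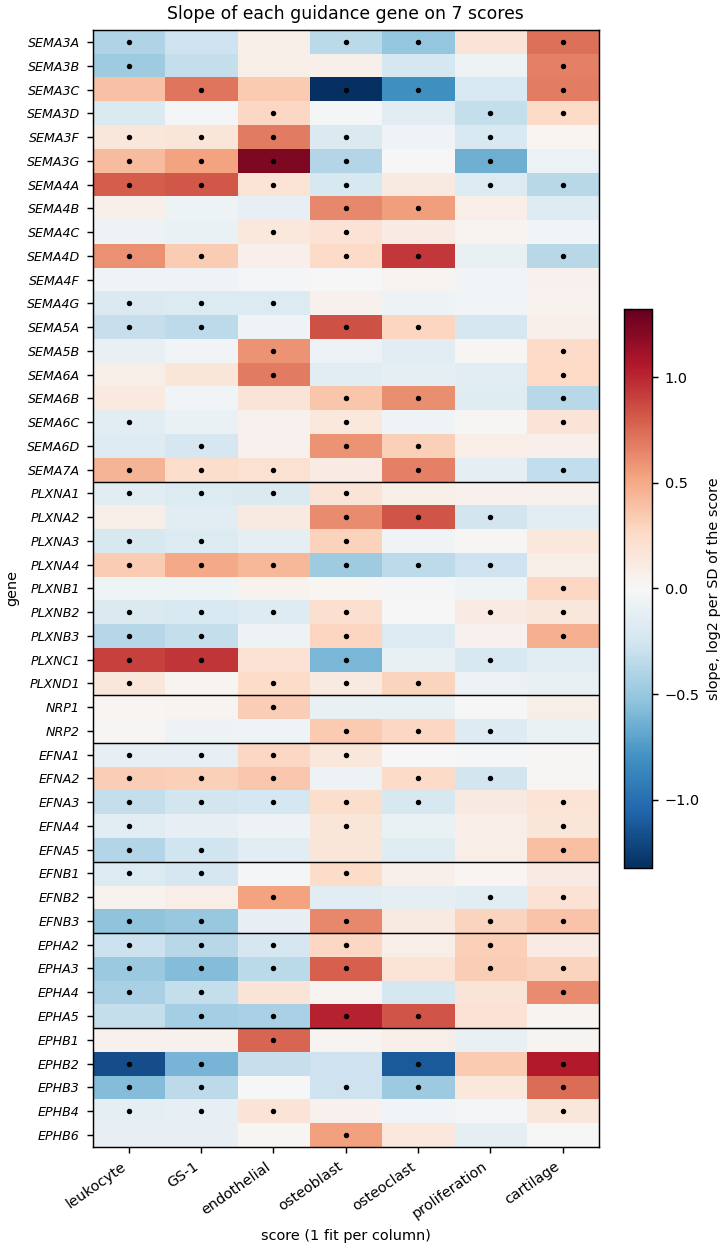
Slope of each of the 47 genes (rows, grouped by family) on 7 scores (columns, 1 fit each), in log2 per SD of the score, with red for higher, blue for lower and a black dot where the adjusted p was under 0.05. PLXNC1 and SEMA4A are red with the leukocyte and GS-1 scores, SEMA3G with the endothelial score and SEMA4D with the osteoclast score, and EPHB2 is blue with the leukocyte and osteoclast scores and red with the cartilage score.

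The GS-1 score is the mean z-score over 27 genes of the study's immune-related signature GS-1, taken as a continuous value; the clusters cut from it were not analysed here. It followed the leukocyte score closely, with r = 0.912 (rho = 0.888, n = 186, permutation test, adjusted p = 1.25e-05 for both over 5 relations chosen after seeing the data, r = 0.901 without the 2 farthest dogs, 0.906 and 0.917 within COTC021 and COTC022, 0.938 and 0.901 within the 50 and 136 libraries). Of the 47 guidance genes, 9 were higher (background 22.7%) and 19 lower (background 26.8%). The leading genes were again PLXNC1, with a slope of 0.94 ± 0.057 (SE, adjusted p = 5.94e-37), and SEMA4A, with 0.82 ± 0.045 (adjusted p = 3.16e-41). SEMA3C followed with 0.71 ± 0.17 (adjusted p = 0.000253), which was 1.01 within COTC021 and 0.39 (adjusted p = 0.223, not called) within COTC022. SEMA3G had 0.54 ± 0.11 (adjusted p = 2.73e-05) and PLXNA4, a co-receptor of class 3 semaphorins, 0.51 ± 0.10 (adjusted p = 6.88e-06).

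Lower with the GS-1 score were EPHB2 (-0.62 ± 0.20, adjusted p = 0.00697), EPHA3 (-0.57 ± 0.11, adjusted p = 4.37e-06), EFNB3 (-0.50 ± 0.12, adjusted p = 0.00019), EPHA5 (-0.44 ± 0.18, adjusted p = 0.0308) and EPHA2 (-0.37 ± 0.055, adjusted p = 2.95e-09). The call of EPHA5 was lost without COTC022 replicate 64 (slope -0.39, adjusted p = 0.0579), as well as within each trial, and that of EPHB2 within COTC022 (-0.44, adjusted p = 0.197) and with edgeR (-0.37, adjusted p = 0.054). With the leukocyte, endothelial and osteoblast scores in the fit, EPHB2 turned to 2.31 (adjusted p = 5.33e-06) and EFNB3 to 0.25 (adjusted p = 0.597, not called), and EPHA3 (-0.25) and EPHA5 (-0.04) were not called. SEMA3C (2.05), PLXNA4 (1.22) and SEMA3G (0.88) had larger slopes in that fit. It holds the GS-1 and leukocyte scores together, which correlated with r = 0.912. Its slopes on the GS-1 score, larger or turned in sign, therefore cannot be compared in size with those of the single fit.

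With the endothelial score, SEMA3G, EPHB1, SEMA3F, SEMA6A and SEMA5B were the most strongly higher, whereas SEMA3A (0.07), SEMA3B (0.08) and SEMA3C (0.35) were not called. Of the 47 genes, 16 were higher (background 18.5%) and 7 lower (background 18.7%), 34.0% and 14.9% of the members, and the median slope was 0.06 against -0.01 over all genes tested. Semaphorins made up 8 of those that were higher, and 1 semaphorin was lower. Of the EphA receptors 0 were higher and 3 lower, and of the EphB receptors 2 were higher and 0 lower.

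SEMA3G, a secreted semaphorin made by endothelial cells (chr20:37729778-37745527), ranged from 0.102 over a median of 9.12 to 103 CPM in COTC021 and from 0.361 over 10.6 to 117 CPM in COTC022. Low levels were those of dogs with a low endothelial score in both trials, whose ranges overlap. SEMA3G was 2.35-fold higher per SD of the score, a slope of 1.23 ± 0.093 (SE, adjusted p = 1.44e-26, limma-voom), with 1.26 and 1.21 within the trials and 1.43 and 1.09 within the library groups. EPHB1 ranged from 0.458 over 7.35 to 35.3 CPM in COTC021 and from 0.139 over 7.07 to 46.9 CPM in COTC022. This receptor of B-type ephrins had a slope of 0.76 ± 0.057 (SE, adjusted p = 7.43e-27), with 0.76 and 0.77 within the trials and 0.89 and 0.70 within the library groups.

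SEMA3F, the secreted ligand of NRP2, ranged from 7.11 over 24.5 to 115 CPM in COTC021 and from 8.05 over 27.7 to 130 CPM in COTC022. Its slope of 0.69 ± 0.034 (SE, adjusted p = 7.6e-46, limma-voom) had the smallest p of the 47 genes, and it was 0.70 and 0.67 within the trials and 0.80 and 0.64 within the library groups. SEMA6A, a membrane semaphorin that binds class A plexins, had 0.69 ± 0.074 (adjusted p = 4.2e-15), and SEMA5B 0.59 ± 0.084 (adjusted p = 1.12e-09). The arterial ephrin EFNB2, which ranged from 1.15 over 7.37 to 88.2 CPM over all dogs, had a slope of 0.53, the VEGF co-receptor NRP1 one of 0.32, PLXND1 one of 0.25 and EPHB4 one of 0.17, and each of these was called.

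The falls with the endothelial score were smaller. PLXNA1 had a slope of -0.19 ± 0.036 (SE, adjusted p = 7.48e-06) and kept its call within each trial and in both library groups. EPHA5 (-0.43 ± 0.17, adjusted p = 0.0324), EPHA3 (-0.35 ± 0.11, adjusted p = 0.0085) and EPHA2 (-0.22 ± 0.059, adjusted p = 0.00161) were not called within COTC021, where their slopes were -0.35, -0.23 and -0.20. EFNA3, an A-type ephrin, had -0.23 ± 0.060 (adjusted p = 0.00101) and -0.22 (adjusted p = 0.0517) within COTC022, where it was not called.

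**Figure D3:**
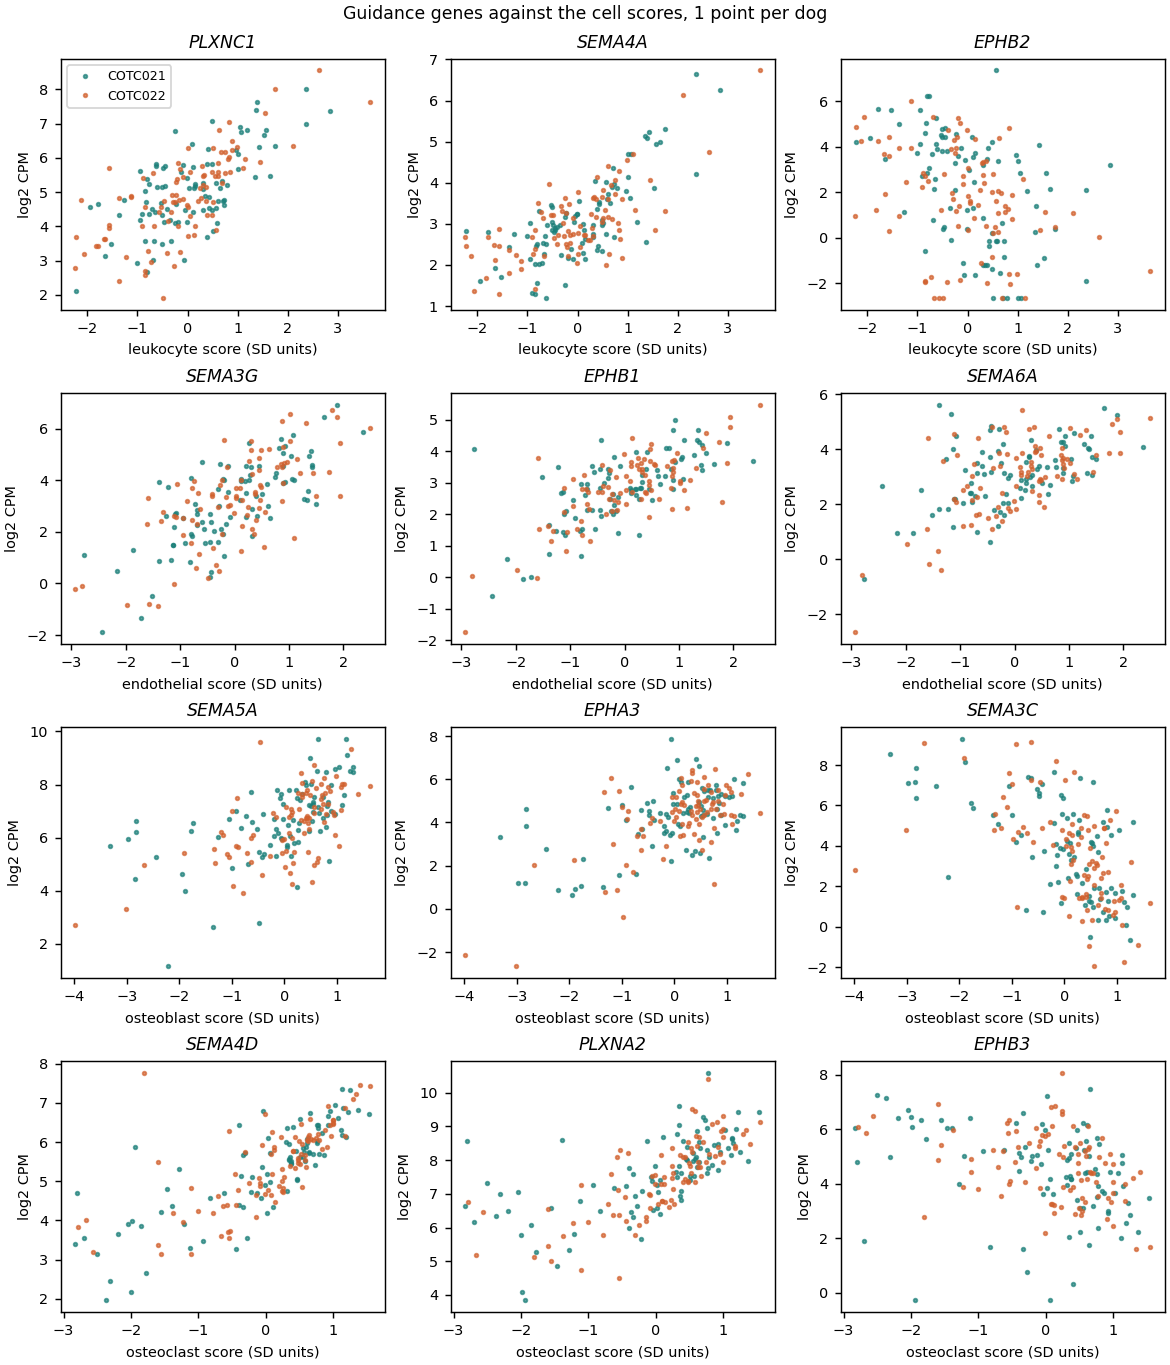
Levels of 12 genes (log2 CPM, vertical axes) against the score named under each panel (SD units, horizontal axes), with 1 point per dog colored by trial. Points rise with the score for PLXNC1, SEMA4A, SEMA3G, EPHB1, SEMA6A, SEMA5A, EPHA3, SEMA4D and PLXNA2 and fall for EPHB2, SEMA3C and EPHB3, and the points of both trials lie among each other.

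The osteoblast score, which follows the genes of the bone-forming lineage, went with the most genes that were higher. Of the 47 members 23 were higher (background 19.4%) and 8 lower (background 21.1%), 48.9% and 17.0% of the members, with a median slope of 0.12 against 0.00 over all genes tested. Plexins were higher in 6 of 9 cases and lower in 2, EphA receptors higher in 3 of 4, ephrin-A genes in 3 of 5 and ephrin-B genes in 2 of 3. Semaphorins were split, with 7 higher and 5 lower of 19.

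SEMA5A, a membrane semaphorin with thrombospondin repeats (chr34:4776835-5250400), ranged from 2.16 over a median of 106 to 833 CPM in COTC021 and from 6.07 over 104 to 817 CPM in COTC022, with near-complete overlap. Its slope on the osteoblast score was 0.84 ± 0.089 (SE, adjusted p = 9.24e-16, limma-voom), 0.87 and 0.82 within the trials and 0.82 and 0.84 within the library groups. EPHA3 ranged from 1.42 over 22.1 to 236 CPM in COTC021 and from 0 over 22.2 to 85.4 CPM in COTC022. Its lowest levels were in dogs at the lowest end of the score, and its slope was 0.78 ± 0.11 (SE, adjusted p = 1.51e-09), with 0.77 and 0.80 within the trials and 0.94 and 0.69 within the library groups.

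EPHA5 had the largest slope, 1.01 ± 0.22 (SE, adjusted p = 3.89e-05), with the widest error, and 0 counts in 4 dogs. SEMA4B, a membrane semaphorin, had 0.64 ± 0.070 (adjusted p = 1.61e-14) and EFNB3 0.63 ± 0.14 (adjusted p = 5.68e-05). PLXNA2 also had a slope of 0.63, SEMA6D, a ligand of PLXNA1, one of 0.59, EPHB6, an Eph receptor without kinase activity, one of 0.55 and NRP2 one of 0.35, each of them called.

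SEMA3C, whose ranges over dogs are given with the levels, had the steepest fall with the osteoblast score of all 47 genes. Its level was 0.400-fold per SD, a slope of -1.32 ± 0.14 (SE, adjusted p = 4.61e-16, limma-voom), with -1.46 and -1.18 within the trials and -0.77 and -1.49 within the 50 and the other 136 libraries. PLXNC1 had -0.61 ± 0.075 (adjusted p = 4.12e-12), PLXNA4 -0.47 ± 0.095 (adjusted p = 1.26e-05), SEMA3G -0.38 ± 0.12 (adjusted p = 0.00425) and SEMA3A -0.36 ± 0.13 (adjusted p = 0.0161). SEMA3G and SEMA3A were not called within COTC022, where their slopes were -0.30 and -0.23.

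The leukocyte, endothelial and osteoblast scores were also fitted together, and 9, 7 and 6 of the 47 slopes on them changed sign, called or not. With the other 2 scores in the fit, the leukocyte score had 10 members higher (background 20.5%) and 20 lower (background 25.0%), of which 6 and 17 were also called by the fit with 1 score. The endothelial score had 15 higher (background 13.3%) and 4 lower (background 11.9%), 14 and 4 of them shared with the single fit, and the osteoblast score had 21 higher (background 17.2%) and 7 lower (background 17.8%), 19 and 6 of them shared. The slope of SEMA3G on the leukocyte score went from 0.42 to -0.01 ± 0.092 (SE, adjusted p = 0.919) while that on the endothelial score stayed at 1.20 ± 0.096 (adjusted p = 2.44e-24). PLXNC1 kept 0.77 ± 0.065 (adjusted p = 6.03e-23) on the leukocyte score and -0.36 ± 0.060 (adjusted p = 2.56e-07) on the osteoblast score. SEMA4D rose to 0.79 ± 0.068 (adjusted p = 3.13e-22) on the leukocyte score. EPHA3 and EPHA5 lost their calls with the endothelial score (-0.19, adjusted p = 0.0955, and -0.26, adjusted p = 0.261) and kept slopes of 0.70 and 0.96 on the osteoblast score.

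**Figure D4:**
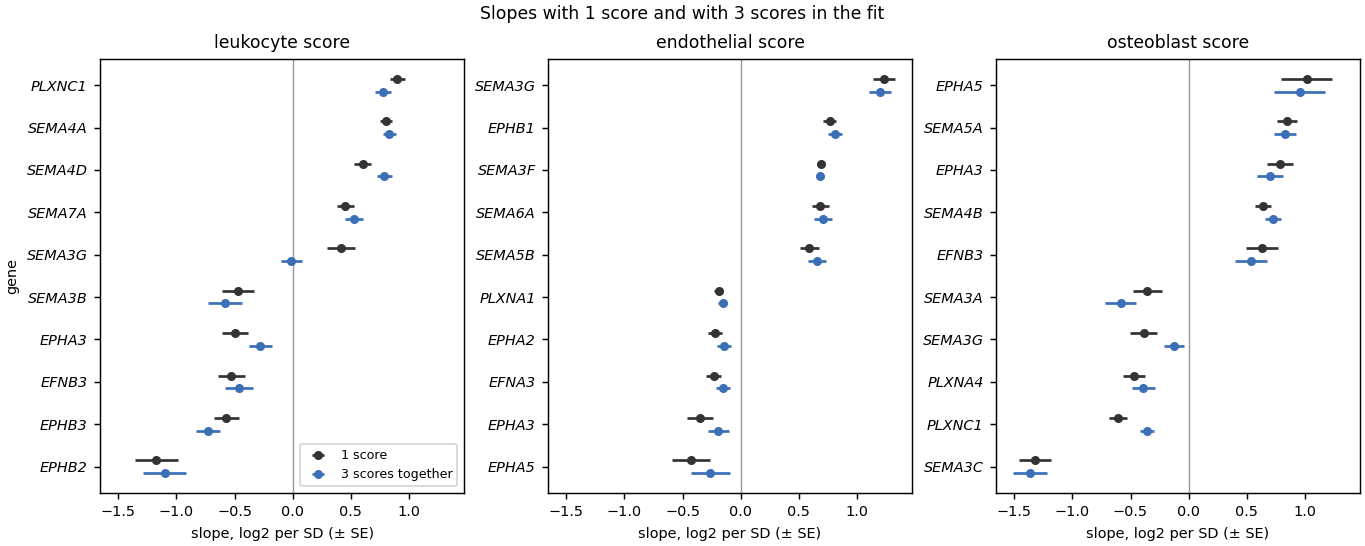
Slopes (log2 per SD, points) with their SE (bars) for the 10 genes named for each of the leukocyte, endothelial and osteoblast scores, with 1 score in the fit (black) and with all 3 together (blue). SEMA3G moves to 0 for the leukocyte score and stays above 1 for the endothelial score, and the slopes of PLXNC1 on the osteoblast score and of EPHA3 on the leukocyte score move towards 0.

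Each member's calls over these 3 scores were counted in the single fits. All 3 scores were called for 11 genes (23.4%, against 13.1% of all genes tested), 2 for 17 (36.2%, against 28.1%), 1 for 17 (36.2%, against 34.2%) and none for 2 (4.26%, against 24.6%), which are PLXNB1, the receptor of SEMA4D, and SEMA4F. PLXNB1 ranged from 3.85 over 10.9 to 50.7 CPM, and its slopes were -0.06, 0.05 and 0.03. SEMA4F ranged from 5.02 over 24.9 to 119 CPM, with slopes of -0.06, -0.02 and 0.00.

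The osteoclast score set SEMA4D first, the semaphorin through which osteoclasts signal to osteoblasts. Of the 47 genes, 11 were higher (background 14.9%) and 6 lower (background 16.2%), with a median slope of -0.01 against -0.02 over all genes. SEMA4D was 1.91-fold higher per SD of the osteoclast score, a slope of 0.94 ± 0.057 (SE, adjusted p = 1e-35, limma-voom), with 1.05 and 0.82 within the trials and 0.76 with the leukocyte, endothelial and osteoblast scores in the fit. PLXNA2 ranged from 14.6 over a median of 202 to 1567 CPM in COTC021 and from 21.9 over 191 to 1394 CPM in COTC022, and had a slope of 0.83 ± 0.062 (SE, adjusted p = 1.27e-26) that was 0.71 with the 3 scores. SEMA7A had 0.66 ± 0.064 (adjusted p = 5.27e-18) and SEMA6B, a membrane semaphorin, 0.61 ± 0.085 (adjusted p = 5.07e-10). EPHA5 had 0.83 ± 0.19 (adjusted p = 0.000279) by limma-voom but 0.35 (adjusted p = 0.0562) by edgeR, where it was not called.

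Lower with the osteoclast score were EPHB2, with a slope of -1.11 ± 0.14 (SE, adjusted p = 2.88e-12) that was -0.92 with the 3 scores, SEMA3C (-0.81 ± 0.16, adjusted p = 1.39e-05), SEMA3A (-0.51 ± 0.13, adjusted p = 0.00105), EPHB3 (-0.48 ± 0.10, adjusted p = 5.22e-05) and PLXNA4 (-0.35 ± 0.11, adjusted p = 0.00722). With the 3 scores in the fit SEMA3C, SEMA3A and EPHB3 were not called (-0.32, -0.14 and -0.12). The osteoclast score correlated with the osteoblast score with r = 0.390 (rho = 0.332, n = 186, permutation test, adjusted p = 1.25e-05 for both, r = 0.348 without the 2 farthest dogs, 0.339 and 0.454 within the trials, 0.539 and 0.345 within the library groups). With the leukocyte score r was 0.347 (rho = 0.387, permutation test, adjusted p = 1.25e-05 for both, r = 0.418 without the 2 farthest dogs, 0.384 and 0.329 within the trials, 0.184 and 0.406 within the library groups).

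The proliferation score, of genes used in mitosis, moved few of the guidance genes: 4 were higher (background 23.5%) and 10 lower (background 28.5%), and the median slope was -0.03 against -0.02 over all genes. SEMA3G fell the most, with a slope of -0.64 ± 0.11 (SE, adjusted p = 1.03e-07), which was -0.69 and -0.62 within the trials. EPHA2, a receptor tyrosine kinase often raised in tumor cells, ranged from 16.6 over 82.2 to 354 CPM over all dogs and rose by 0.31 ± 0.057 per SD (adjusted p = 1.67e-06). The other genes that were higher were EPHA3 (0.32 ± 0.12, adjusted p = 0.0173), EFNB3 (0.30 ± 0.12, adjusted p = 0.0372) and PLXNB2 (0.11 ± 0.043, adjusted p = 0.0258). These were not called without COTC022 replicate 64 (0.19, 0.24 and 0.09, adjusted p = 0.142, 0.0924 and 0.082), which left 1 gene higher. SEMA3D (-0.32 ± 0.098, adjusted p = 0.00394), PLXNA4 (-0.28 ± 0.11, adjusted p = 0.0217) and EFNA2 (-0.25 ± 0.070, adjusted p = 0.00171) were lower by limma-voom and not called by edgeR (-0.19, -0.21 and -0.15). PLXNA2 had -0.24 ± 0.085 (adjusted p = 0.0125), with -0.41 within COTC021 and -0.06 (adjusted p = 0.716, not called) within COTC022.

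Cartilage genes varied widely over the tumors, with COL2A1, the main collagen of cartilage, between 0 and 49245 CPM. A fit of the cartilage score was therefore added after seeing the data. It had 20 members higher (background 16.9%) and 4 lower (background 17.1%), with a median slope of 0.08 against 0.00 over all genes. EPHB2 was 2.06-fold higher per SD, a slope of 1.04 ± 0.13 (SE, adjusted p = 7.14e-12), and EPHB3 had 0.74 ± 0.090 (adjusted p = 1.35e-11). SEMA3A (0.73 ± 0.12, adjusted p = 2.13e-07), SEMA3C (0.67 ± 0.16, adjusted p = 0.000538), SEMA3B (0.67 ± 0.11, adjusted p = 6.07e-07) and EPHA4 (0.63 ± 0.096, adjusted p = 5.28e-08) followed. The 4 genes that were lower were SEMA4D, SEMA6B, SEMA4A and SEMA7A, with slopes between -0.36 and -0.33.

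EPHB2 and EPHB3 were thus lower with the leukocyte score and higher with the cartilage score. These scores correlated with r = -0.401 (rho = -0.398, n = 186, permutation test, adjusted p = 1.25e-05 for both, r = -0.372 without the 2 farthest dogs, -0.433 and -0.371 within the trials, -0.558 and -0.332 within the library groups). With cartilage and skeletal muscle scores in the fit, EPHB2 and EPHB3 remained called with the leukocyte score, and SEMA3B did not (-0.32, adjusted p = 0.0517). Slopes on the cartilage score with the leukocyte score in the fit were not computed. The osteoclast and cartilage scores correlated with r = -0.212 (rho = -0.200, permutation test, adjusted p = 0.00367 and 0.00606, r = -0.211 without 2 dogs, -0.227 and -0.198 within the trials, -0.294 and -0.185 within the library groups).

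Ligands were set against their known receptors in 7 pairs. The covariate was the level of the receptor, scaled to an SD of 1 over the dogs in each fit. EFNB2 was higher with EPHB4 by 0.40 ± 0.062 per SD (SE, adjusted p = 7.01e-07, limma-voom; 19.4% of all genes were called with this covariate). The slope was 0.40 within COTC021 and 0.40 within COTC022, and 0.24 (adjusted p = 0.00415) with the 3 scores in the fit. SEMA3A was higher with NRP1 by 0.48 ± 0.14 (adjusted p = 0.00936, background 14.5%). SEMA3A ranged from 0.256 over a median of 7.99 to 123 CPM in COTC021 and from 0.234 over 7.91 to 87.7 CPM in COTC022, and the pair was not called within COTC022 (0.39, adjusted p = 0.273) or with the 3 scores (0.43, adjusted p = 0.0527).

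The other 5 pairs were not called. SEMA4D had a slope of -0.06 ± 0.083 on PLXNB1 (adjusted p = 0.677, background 9.13%), and SEMA7A one of 0.12 ± 0.077 on PLXNC1 (adjusted p = 0.224, background 41.7%). With the 3 scores in the fit, SEMA7A had a slope of -0.29 ± 0.10 on PLXNC1 (adjusted p = 0.0287), opposite in sign. SEMA3F had -0.12 ± 0.058 on NRP2 (adjusted p = 0.101, background 38.3%), EFNA1 0.04 ± 0.041 on EPHA2 (adjusted p = 0.425, background 41.5%) and SEMA6D 0.12 ± 0.079 on PLXNA1 (adjusted p = 0.252, background 33.4%).

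**Figure D5:**
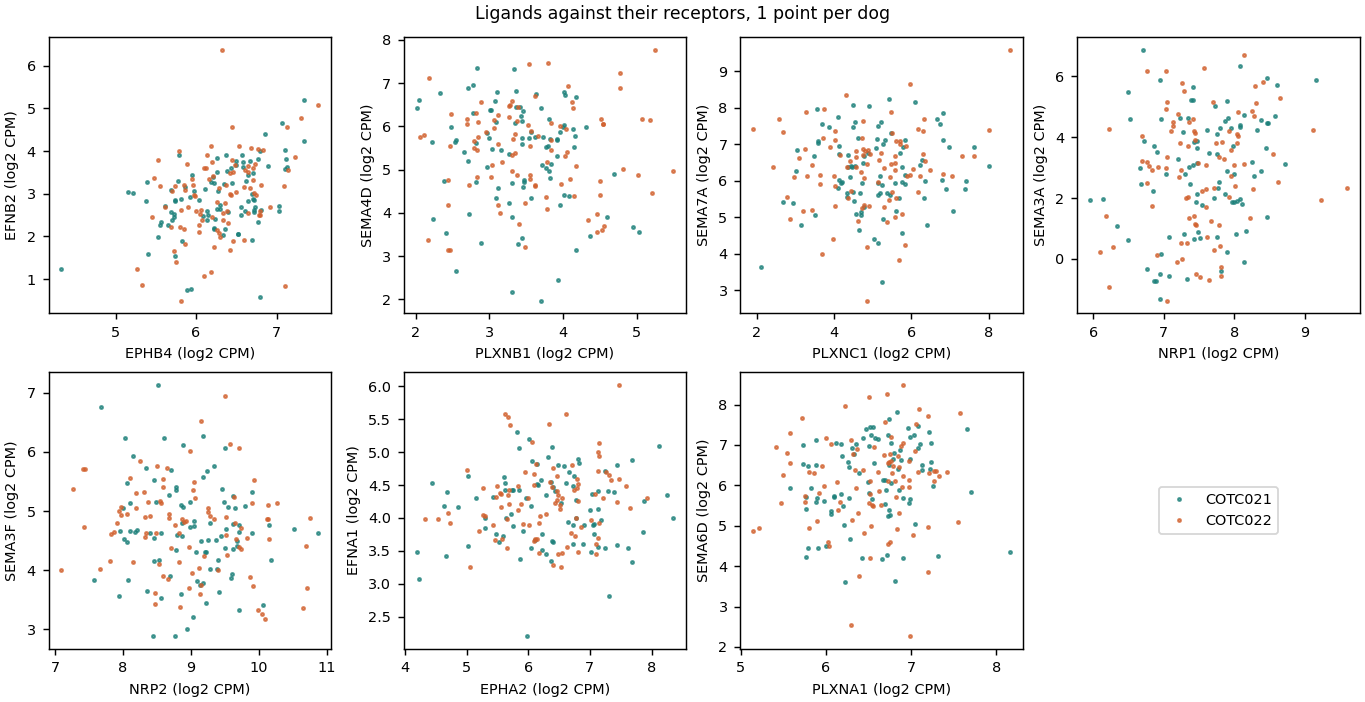
Level of the ligand (log2 CPM, vertical axes) against that of its receptor (log2 CPM, horizontal axes) in the 7 pairs fitted, with 1 point per dog colored by trial. EFNB2 rises with EPHB4 in both trials, and the clouds of SEMA4D against PLXNB1 and of SEMA3F against NRP2 show no rise.

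Between trials no guidance gene was called. Of the 47 genes 0 had an adjusted p under 0.05 by limma-voom (background 0.0149%, 2 of 13422 genes). The count was also 0 by edgeR and by DESeq2, for which the share of all genes called was not computed. By limma-voom, 2 of the 47 had an unadjusted p under 0.05, where 9.92% of all genes did. These were PLXNB2, which ranged from 54.9 over a median of 206 to 640 CPM in COTC021 and from 48.5 over 170 to 519 CPM in COTC022 (-0.24 ± 0.087 in COTC022 against COTC021, SE, adjusted p = 0.307), and SEMA3D (-0.42 ± 0.21, adjusted p = 0.487). The largest difference in size was that of EPHB2, -0.56 ± 0.39 (adjusted p = 0.674), which was smaller than its spread over dogs. Slopes on the leukocyte, endothelial and osteoblast scores, scaled over all dogs, were also compared between trials and between library groups by an interaction term. None of the 47 genes was called for any of the 6 by limma-voom, with 2, 0 and 0 genes at an unadjusted p under 0.05 between trials and 3, 4 and 5 between library groups, and the smallest adjusted p was 0.194. Over all genes tested, between 0 and 40 were called for such a difference. An unadjusted p under 0.05 was found for 419, 479 and 597 of the 13422 genes between trials. Between library groups it was found for 1558, 1178 and 1426 of them.

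Genes of signaling through semaphorins, plexins and Eph receptors, from a list of 27 effectors of which 25 were tested, were called in both directions. The list is not limited to downstream genes, since it also holds receptors such as CD72 and MET. With the leukocyte score 8 were higher and 8 lower, with the endothelial score 6 and 2, and with the osteoblast score 7 and 8, which are 32.0% and 32.0%, 24.0% and 8.0%, and 28.0% and 32.0% of the 25 genes, beside the same backgrounds of 23.3% and 28.8%, 18.5% and 18.7%, and 19.4% and 21.1%. CD72, a receptor of SEMA4D on B cells, had the largest slope on the leukocyte score (1.15 ± 0.082, adjusted p = 1.26e-29) and the lowest on the osteoblast score (-0.73 ± 0.082, adjusted p = 3.8e-14). DPYSL5, of the collapsin response mediators that relay SEMA3A signals, had slopes of -0.92 ± 0.18, -0.65 ± 0.17 and 0.91 ± 0.20 on the leukocyte, endothelial and osteoblast scores, the extreme of the list each time. MET, a receptor kinase that pairs with B-type plexins, and CD72 were highest with the endothelial score. Their slopes were 0.34 ± 0.084 (adjusted p = 0.000522) and 0.34 ± 0.12 (adjusted p = 0.015). MET had a larger slope on the leukocyte score (0.41 ± 0.080, adjusted p = 5.91e-06). With the GS-1, osteoclast, proliferation and cartilage scores, 6, 8, 1 and 4 effectors were higher and 7, 4, 13 and 2 lower. Those higher are 24.0%, 32.0%, 4.0% and 16.0% of the 25 genes (background 22.7%, 14.9%, 23.5% and 16.9%). Those lower are 28.0%, 16.0%, 52.0% and 8.0% (background 26.8%, 16.2%, 28.5% and 17.1%).

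Slits, netrins and their receptors, the other classical guidance families, were tested in 13 of 18 cases. With the leukocyte score 2 were higher and 7 lower, with the endothelial score 4 and 2, and with the osteoblast score 7 and 4. These are 15.4% and 53.8% (background 23.3% and 28.8%), 30.8% and 15.4% (background 18.5% and 18.7%) and 53.8% and 30.8% (background 19.4% and 21.1%) of the 13 genes. The median slopes were -0.25, -0.01 and 0.16, against -0.02, -0.01 and 0.00 over all genes tested. ROBO4, the endothelial Slit receptor family member, had a slope of 0.73 ± 0.033 on the endothelial score (adjusted p = 4.28e-51). The netrin NTN4 was highest with the leukocyte score (0.33 ± 0.064) and the netrin receptor UNC5C lowest with the leukocyte (-0.82 ± 0.13) and endothelial (-0.55 ± 0.13) scores. ROBO2 was highest (0.89 ± 0.14) and RGMA, a ligand of neogenin, lowest (-0.48 ± 0.094) with the osteoblast score. With the GS-1, osteoclast, proliferation and cartilage scores, 3, 4, 2 and 6 of these genes were higher and 6, 3, 4 and 2 lower. Those higher are 23.1%, 30.8%, 15.4% and 46.2% of the 13 genes (background 22.7%, 14.9%, 23.5% and 16.9%). Those lower are 46.2%, 23.1%, 30.8% and 15.4% (background 26.8%, 16.2%, 28.5% and 17.1%).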

How the data were processed

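Polyadenylated RNA of primary canine osteosarcomas was sequenced from stranded mRNA libraries. The authors aligned reads with STAR 2.7.0f to the build UU_Cfam_GSD_1.0 and deposited RSEM 1.3.1 expected counts per gene, not normalized; the strand setting is not given in the sources used here. Expected counts divide reads that map to several genes, 3.07% of values were not whole, and all were rounded. Of 198 columns, 12 matched no sample title and were not used. Low genes were removed by filterByExpr of edgeR 4.0.16 (a minimum count of 10, a large.n of 5 and a min.prop of 0.5), libraries were scaled by TMM, and models were fitted by voom (limma 3.58.1, R 4.3.3), with Benjamini-Hochberg adjustment over all genes tested. edgeR's quasi-likelihood test and DESeq2 1.42.0 were alternatives, and the fit was tested on simulated data. limma-voom rather than edgeR was the main test because the study's methods use it. CPM are counts over the library total, not TMM-scaled unless stated. Permutation tests were two-sided with 100000 resamples, in Python 3.11.15 with scipy 1.17.1. Coordinates are RefSeq gene spans of UU_Cfam_GSD_1.0, where all 53 symbols matched and 21 genes overlap another gene, 4 of them a protein-coding one.

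Groups are the trials in the sample titles. The spread between the 93 dogs of a trial includes both biological and technical variation. The members and marker lists were chosen with earlier results of these data known. Named per score are the 5 called members with the largest and the 5 with the lowest slope, both genes of each fitted pair, the 5 members with the highest median CPM and with the largest SD, those that failed the filter, and the extremes of the other lists. Genes outside this rule (SEMA4C, the further called members beside the leading ones, those of the cartilage fit, and the most even or uncalled genes) were named after their values were seen. The score with GS-1 genes uses the study's gene names only; GS-1 clusters, DFI and OS were not analysed here.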

Additional observations from a re-analysis of the deposited data

How the results depend on the processing

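Alternatives changed 1 choice at a time. Among the leading genes of each score, 3 slopes changed sign. They were SEMA3G on the leukocyte score with the other 2 scores (-0.014), and EPHB2 (2.31) and EFNB3 (0.25) on the GS-1 score with the 3 scores. That last fit holds both the GS-1 and the leukocyte score, which correlated with r = 0.912. SEMA3F, called higher with the leukocyte score, also turned (-0.068) with the other 2 scores. Of the other comparisons of a leading gene with its reported slope, 141 kept their call and 8 lost it for the leukocyte score, 137 and 13 for the endothelial, 144 and 6 for the osteoblast, 50 and 8 for the GS-1, 54 and 6 for the osteoclast and 32 and 22 for the proliferation score. Members lower with the leukocyte score fell from 21 to 13 within COTC021, 13 within COTC022 and 7 within the 50 libraries. Those lower with the endothelial score went from 7 to 4 within COTC021, 3 within the 50 libraries, 4 with the other 2 scores, and 11 by edgeR and by DESeq2. Those lower with the osteoblast score went from 8 to 5 within COTC021 and 3 within COTC022, and those higher from 23 to 9 within the 50 libraries. Those lower with the GS-1 score went from 19 to 12 within COTC021, 9 within COTC022 and 7 with the 3 scores. For the osteoclast score, 13 rather than 6 were lower by edgeR, and 7 rather than 11 higher with the 3 scores. For the proliferation score, 2 rather than 4 were higher within COTC021 and within COTC022, 3 rather than 10 lower within COTC022 and 6 with the 3 scores; without COTC022 replicate 64, 1 was higher. For the cartilage score, 12 and 13 rather than 20 were higher within COTC021 and COTC022, and 2 rather than 4 lower within COTC022. A single trial or library group holds fewer dogs, and its scores were scaled over its own dogs. Except for the fits with the other 2 scores, the share of all genes called under these settings was not computed. These counts therefore cannot be read as changes particular to the members. Among the pairs, SEMA4D on PLXNB1 was 0.048 within COTC022, SEMA7A on PLXNC1 -0.29 and SEMA6D on PLXNA1 -0.032 with the 3 scores, and SEMA3A on NRP1 0.43 with the 3 scores and 0.39 within COTC022. The cause of these changes was not tested. TMM replaced by RLE, no low-count filter, quality weights, median scores, library names as covariate and ranks (chosen after seeing the data) left each count for the leukocyte, endothelial and osteoblast scores within 1.5 times its value. Adipocyte and Schwann scores could not be made, so muscle and cartilage scores stood for that alternative, and SEMA3E with PLXND1 could not be fitted. No paired analysis was possible because each dog gave 1 tumor and replicate numbers tie no dogs of different trials together. Genes near 10 counts per library, such as PLXNA4 and EFNA2, are limited by depth.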

Other observations

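SEMA4C, a membrane semaphorin that binds PLXNB2 (chr10:46162896-46173783), reached 1381 CPM in COTC022 replicate 58, from 27790 counts of 20123835, against a median of 30.3 CPM over 186 dogs and 94.3 CPM in the next highest dog. Genes within 1 Mb on either side with a median of at least 10 CPM were listed after this value was seen. On the side of lower coordinates, TMEM131 (167 CPM against a median of 86.4) and COX5B (57.8 against 24.8) were each the third highest of the 186 dogs. ACTR1B (107 against 69.1) ranked 10 and LOC119876730 (87.3 against 32.5) ranked 50 from the highest. On the other side, ANKRD39, the next gene listed (13.4 CPM against 24.7), was the third lowest, and THADA (14.8 against 28.7) ranked 6 from the lowest. LMAN2L (14.8 against 23.9), CNNM3 (25.3 against 34.3), ZFP36L2 (54.2 against 77.5) and KANSL3 (113 against 129) ranked 25, 33, 43 and 61 from the lowest. CNNM4 lay at 16.8 against 18.1. No DNA data were analysed here, and the cause of this level was not tested.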
